A study of Mus musculus with 6 samples.

Results

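Xcr1-Clec9a dendritic cells (DCs) made up 251 of the 74546 cells measured by droplet single-cell RNA sequencing in 4 orthotopic mouse pancreatic tumours. They were chosen by their own unique molecular identifiers (UMIs, each standing for 1 captured RNA molecule). Barcodes were taken as cells where they carried 500 UMIs or more and over 200 genes, with mitochondrial transcripts below 10% of UMIs. A cell was an Xcr1-Clec9a DC when it held at least 2 UMIs of Xcr1 and Clec9a together and at least 2 of H2-Aa, under 0.2% of its UMIs in C1qa, C1qb and C1qc, under 1% in S100a8 and S100a9, and none of Cd3e or Ccr7. Levels of those genes therefore describe the choice of cells and carry no test. The study asked how MLKL, the pore-forming protein that executes necroptosis, acts in pancreatic cancer. Its tumours grew in the pancreas of wild-type C57BL/6 mice, aged 6 to 8 weeks, from KPC cells, which were taken from a mouse model of pancreatic cancer with p53 R172H and Pdx1-Cre among its alleles. The injected cells carried an empty vector (OE-Vector) or overexpressed MLKL (OE-MLKL), so the DCs came from the host and not from the altered line. Tumours were taken 4 weeks after injection, with 3 per group and 1 tumour per library. Count matrices for OE-Vector 1 and for OE-MLKL 1, 2 and 3 were analysed here, so the OE-Vector side of every comparison is 1 tumour. Where 4 values are listed, they stand in that order.

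XCR1 and CLEC9A mark conventional type 1 DCs (cDC1), a rare lineage that needs the transcription factors IRF8 and BATF3 and the growth factor FLT3L to develop. XCR1 is the receptor for XCL1, a chemokine of activated CD8 T cells and NK cells. CLEC9A binds actin filaments exposed on dead cells and directs their antigens to cross-presentation, the loading of engulfed protein onto MHC class I for CD8 T cells. When DCs mature they lower endocytosis, switch on Ccr7 and leave for the lymph node, and the rule left out cells with a Ccr7 transcript.

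Genes outside the rule matched the label in most of the cells. Irf8 was detected in 242 of the 251 cells and Flt3, the receptor for FLT3L, in 188, and 8 cells had neither. Of 18 cDC1 genes outside the rule, a cell held a median of 14 (2 to 18), with library medians of 15, 10, 11 and 14, and 247 cells held 5 or more. Macrophages defined by C1q held a median of 4 (0 to 11). Irf8 itself does not separate the lineages, being found in 5038 of 6299 C1q macrophages, but Flt3 was found in 25 of them, at median depths of 4563.5 to 8979 UMIs. Both Xcr1 and Clec9a were present in 210 cells, Xcr1 alone in 37 and Clec9a alone in 4. The edge of the rule was not clean in every library. The 19 cells at exactly 2 UMIs of Xcr1 and Clec9a together (1, 7, 6 and 5 by library) held Irf8 at 0, 473, 1253 and 762 counts per 1000000 UMIs (CPM), against 1921, 1352, 1969 and 2094 CPM in the 232 cells above that number. Another 150 cells (15, 16, 10 and 109 by library) stood 1 UMI short. They held Irf8 at 139, 541, 208 and 57.2 CPM and Flt3 at 2.40, 155, 29.8 and 1.05 CPM. In OE-MLKL 1 these levels were near those of its cells at exactly 2 UMIs, which held Irf8 at 473 and Flt3 at 165 CPM. Of the other criteria, the C1q limit alone left out 43 cells, Cd3e 12, Ccr7 5, H2-Aa 4 and the S100a8-S100a9 limit 1.

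The libraries differed in ways that touch these cells. The Xcr1-Clec9a DCs held medians of 12913, 6238, 6374 and 10202 UMIs and 3426, 2056, 2345 and 3162 genes, so the DCs of OE-MLKL 1 and 2 were the shallower pair, although over all cells those libraries were the deepest, at medians of 1983, 5287, 3358 and 2814 UMIs. Malat1, a nuclear RNA, stood at 22811, 8105, 10484 and 30262 CPM in them and ribosomal protein genes at 19.7, 29.2, 23.4 and 18.8% of UMIs. Over 4930 genes the OE-Vector 1 profile correlated with OE-MLKL 3 at 0.915 and every other pair at 0.828 to 0.868, a description across genes. The Mlkl transcript did not separate the labels, though 3′ counting can miss an introduced transcript that lacks the gene's own 3′ end, so its level does not check them. It stood at 3.69, 0, 4.04 and 2.46 CPM in the Xcr1-Clec9a DCs and at 13.8, 8.09, 12.1 and 15.8 CPM over all cells, so OE-MLKL means the libraries labelled so. Cells scored as likely doublets numbered 7, 2, 3 and 16 among the Xcr1-Clec9a DCs and were kept. Of the 251 barcodes, 2 also occurred in another library, both outside its Xcr1-Clec9a DCs. Markers of other cell types were sparse but present: Cd79a, Cd79b or Ms4a1 of B cells in 2 cells, T cell receptor chains in 18, Epcam or Krt19 of epithelial cells in 54, and the neutrophil receptors Csf3r or Cxcr2 in 76. Siglech, which marks plasmacytoid DCs, was found in 11 cells, 1 of them with 16 UMIs.

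The number of Xcr1-Clec9a DCs differed more among OE-MLKL tumours than between the labelled groups. OE-Vector 1 held 53, a share of 0.345% of its 15382 cells (exact binomial 95% interval 0.258 to 0.450). OE-MLKL 1 held 23 (0.12%, 0.0790 to 0.187) and OE-MLKL 2 held 27 (0.117%, 0.0772 to 0.170). OE-MLKL 3 held 148 (0.839%, 0.710 to 0.985), more than the other 3 libraries together. The OE-MLKL mean was 0.360 ± 0.415% (SD, n = 3), and OE-Vector 1 lay inside their range (exact permutation test, p = 1, where the smallest possible is 0.25). The intervals cover counting error only. They do not cover cells that stood 1 UMI short of the rule, of which OE-MLKL 1 had 16 beside its 23. Set against other myeloid cells, OE-MLKL 3 was again highest and OE-MLKL 1 and 2 again the lowest pair: 4.42, 1.77, 2.17 and 5.78 Xcr1-Clec9a DCs per 100 C1q macrophages, and 1.27, 0.917, 0.731 and 3.90 per 100 S100a8-S100a9 neutrophils, which had 1% or more of their UMIs in S100a8 and S100a9, at least 2 of Csf3r and Cxcr2 together and none of H2-Aa or Cd3e. A pair of other DC populations was counted beside them. Cd209a DCs, named for a lectin of cDC2, met the same cuts with at least 2 UMIs of Cd209a and no Xcr1 or Clec9a, and numbered 14, 0, 3 and 5. Ccr7 DCs, the mature migratory state, had at least 2 UMIs of Ccr7 and 1 of Fscn1, and numbered 31, 2, 16 and 29. Xcr1-Clec9a DCs made up 54.1, 92.0, 58.7 and 81.3% of these 3 populations, an OE-MLKL mean of 77.3 ± 17.0% (SD, n = 3), with OE-Vector 1 below all 3 OE-MLKL libraries and near OE-MLKL 2 (exact permutation test, p = 0.5). That order depended on the rule, since with at least 3 UMIs of Xcr1 and Clec9a OE-MLKL 2 stood at 52.5% and OE-Vector 1 at 53.6%. With cells thinned to 1000 UMIs and shallower ones left out, they stood at 14.3% (1 of 7 cells) and 54.8% (17 of 31). In OE-MLKL 1 the other DCs were 2 cells, so its share rests on their near absence.

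**Figure D1:**
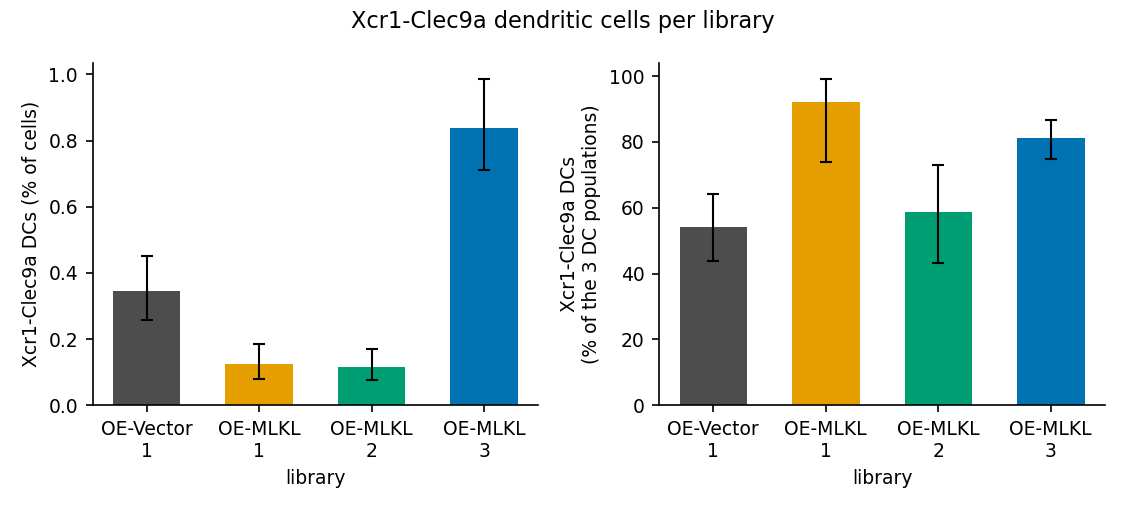
Share of Xcr1-Clec9a DCs in each library, as a percent of all cells (left) and of the 3 DC populations together (right). Bars are single libraries and error bars are exact binomial 95% intervals for counting error. OE-MLKL 3 stands at 0.839% of cells and OE-MLKL 1 and 2 at 0.12 and 0.117%, on either side of OE-Vector 1 at 0.345%.

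The cDC1 programme was present in all 4 libraries, at levels that were higher in OE-Vector 1 and OE-MLKL 3 for much of the list. Levels are CPM of the UMIs summed over the Xcr1-Clec9a DCs of a library, so deep cells weigh more. In OE-MLKL 2, 1 cell held 48779 of the 247796 UMIs. No term for gene length was applied to these 3′ counts, although whether introns were counted is not settled. The genes of the rule, as a description, stood at 642, 307, 408 and 949.6 CPM for Xcr1 and 217, 143, 105 and 317 CPM for Clec9a. Irf8, the lineage's master factor, was at 1819, 1148, 1828 and 2082 CPM and its partner Batf3 at 220.4, 109.8, 105 and 189 CPM. Id2, which represses the E proteins of the plasmacytoid fate, went the other way, with 919.9, 1483, 1207 and 871 CPM, highest in OE-MLKL 1. Naaa, a lysosomal acid amidase, ranged from 527 to 1065 CPM, Ppt1, a lysosomal thioesterase, from 214 to 1127 CPM and Wdfy4, which cross-presentation of cell-bound antigen requires, from 456 to 882 CPM, each lowest in OE-MLKL 1. Tlr3, the sensor of double-stranded RNA, was high in OE-Vector 1 and OE-MLKL 3 and low in OE-MLKL 1 and 2, at 352, 176, 129 and 393 CPM. Itgae (CD103) was even, at 349, 324, 295 and 391 CPM. The adhesion molecule Cadm1 was at 138, 121, 161 and 227 CPM, the inhibitory receptor Btla at 222, 132, 153 and 212 CPM and Snx22, a sorting nexin, at 133, 65.9, 52.5 and 82 CPM. Clnk and Tlr11 were the lowest of the list, with Tlr11, the sensor of profilin, at 22.2, 43.9, 20.2 and 39.4 CPM.

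**Figure D2:**
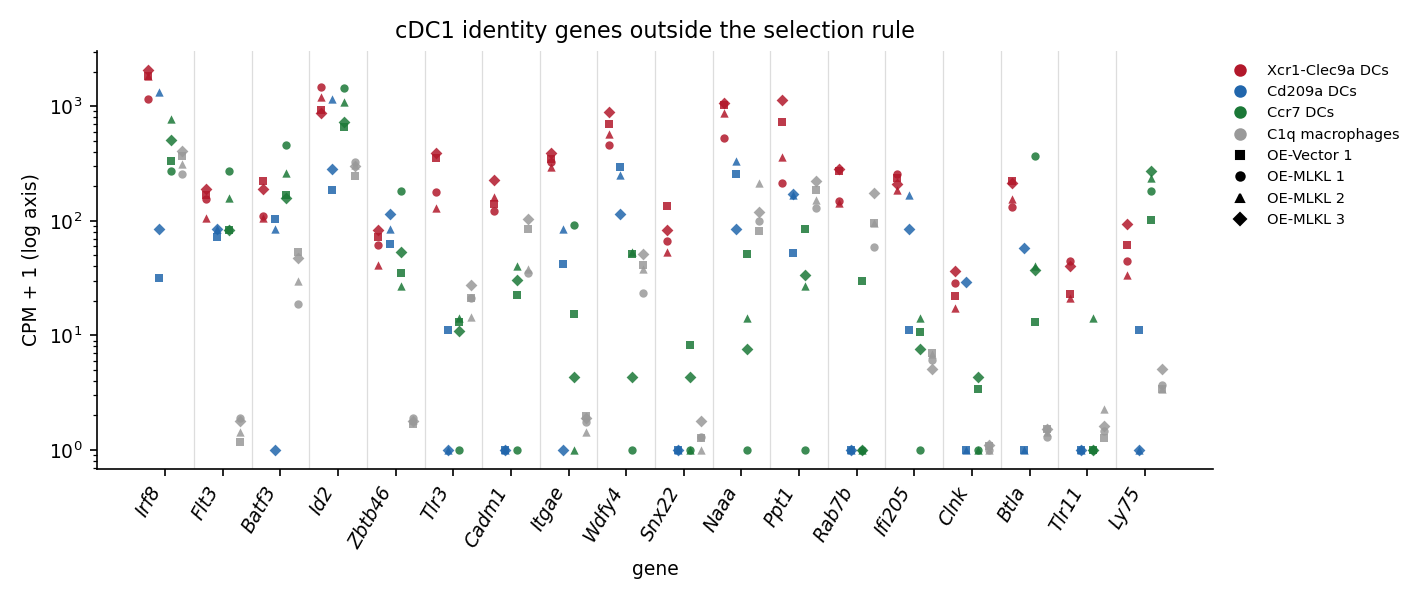
Levels of 18 cDC1 genes in 4 populations, as CPM + 1 on a log axis, with 1 point for each library and population (colour, population; shape, library). Itgae, Tlr3, Wdfy4 and Naaa sit highest in the Xcr1-Clec9a DCs, while Irf8 is also present in C1q macrophages at 256 to 407 CPM.

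Against the other myeloid populations of the same tumours, most cDC1 genes were higher in the Xcr1-Clec9a DCs. Each comparison summed UMIs per library and population, kept the library as a block and was tested by edgeR's quasi-likelihood method, p-values being adjusted by Benjamini-Hochberg across every gene in the fit and called at 0.05. All populations were gated on genes of the same cells, so genes that accompany a gating gene differ in part by selection. Against the Ccr7 DCs, 495 of 4149 genes were higher (11.9% of those tested) and 550 lower (13.3%). Of 16 cDC1 genes tested outside the rule, 11 were higher and 1 lower, with a median log2 fold change of 3.33 beside 0.02 over all genes. Naaa stood at 1034, 527, 872 and 1065 CPM against 50.6, 0, 13.1 and 6.58 CPM, a log2 fold change of 5.35 ± 0.44 (edgeR adjusted p = 1.4e-31). Itgae followed with 5.18 ± 0.47 (adjusted p = 9.2e-26) and Wdfy4 with 4.63 ± 0.42 (adjusted p = 6.3e-26). Ly75, the endocytic receptor DEC-205, was the exception, at 60.3, 43.9, 32.3 and 91.8 CPM against a mean of 198 ± 74.5 CPM (SD, n = 4) in Ccr7 DCs and a log2 fold change of -1.50 ± 0.31 (adjusted p = 2.2e-05). Batf3 and Flt3 did not pass, at -0.17 ± 0.30 (adjusted p = 0.74) and 0.67 ± 0.32 (adjusted p = 0.12).

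The maturation list gave the reverse. Of its 13 genes tested, 12 were lower than in Ccr7 DCs and none higher, with a median log2 fold change of -4.24. Among them were Ccl5, Il4i1, an amino acid oxidase, Socs2, an inhibitor of cytokine signalling, Relb, an NF-kappaB subunit, and Cd83, a surface marker of maturation. Ccl5 stood at 19.7, 16.5, 16.1 and 38.2 CPM against 2279, 3551, 5639 and 2396 CPM, which is -6.83 ± 0.41 on the log2 scale (edgeR adjusted p = 1.9e-57). Beyond the lists, the largest of the called differences in favour of Xcr1-Clec9a DCs were Qpct, a glutaminyl cyclase, at 6.42 ± 0.61, the septin Sept3 at 6.10 ± 0.52, the fatty acid receptor Ffar4 at 6.06 ± 0.72 and the sulfotransferase Sult1a1 at 5.85 ± 0.72. Plet1, a surface protein also found on intestinal DCs, stood at 533, 368, 262 and 272 CPM against 12.1, 0, 13.1 and 0 CPM (5.78 ± 0.51, adjusted p = 9.0e-28). The TLR-like receptor Cd180 and the scavenger receptor Cd36 were higher by 5.31 ± 0.64 and 5.08 ± 0.58. Txndc16 had no UMI in Ccr7 DCs, which makes it at least 32-fold higher at a floor of 3 counts over those cells. Called differences the other way included Ramp3, a receptor-modifying protein, at -7.45 ± 0.47, the lipid chaperone Fabp5 at -5.51 ± 0.40 and, of the maturation list, Samsn1 at -5.73 ± 0.39 and the calcium channel subunit Cacnb3 at -5.41 ± 0.38. Leaving out OE-Vector 1 or OE-MLKL 3 cut the 1045 calls to 517 and 365.

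The Cd209a DCs were only 22 cells in 3 libraries, so that comparison covered 2859 genes. Xcr1-Clec9a DCs were higher in 133 (4.65%) and lower in 159 (5.56%). Of 14 cDC1 genes, 11 were higher, with a median of 2.80 beside 0.14 over all genes. Irf8 was at 1819, 1148, 1828 and 2082 CPM against 30.7, 1331 and 84.4 CPM in Cd209a DCs of OE-Vector 1, OE-MLKL 2 and OE-MLKL 3 (3.44 ± 0.52, edgeR adjusted p = 5.7e-05). The 3 Cd209a DCs of OE-MLKL 2 thus lay within the range of the Xcr1-Clec9a DCs and those of the other libraries far below it. These 3 cells also held the 10 plasmacytoid DC genes at a summed 3078 CPM, with Siglech, Ly6d and Ccr9 detected and Ptprs alone at 0, against 511 and 394 CPM in the Cd209a DCs of OE-Vector 1 and OE-MLKL 3 and 253 to 374 CPM in the Xcr1-Clec9a DCs. Their 11 cDC2 genes outside the rule summed to 1498 CPM, against 4070.0 and 1632 CPM in the other libraries, so the cDC2 label is not clear for them. Tlr3 was higher by 5.74 ± 0.80 (adjusted p = 2.2e-05). Several genes had no UMI in Cd209a DCs and were at least 14.8-fold (Serpinb6b, a serine protease inhibitor), 12.9-fold (Rab7b, a late endosomal GTPase), 9.39-fold (Cadm1) and 7.19-fold (Cd36) higher, at a floor of 3 counts over those cells. Flt3 (1.26 ± 0.50, adjusted p = 0.12) and Zbtb46, a factor of all conventional DCs (adjusted p = 0.997), did not pass. Of 7 cDC2 genes, 6 were lower with a list median of -3.34, among them the integrin Itgam (-4.52 ± 0.46, adjusted p = 2.1e-07), the lectins Clec10a (-3.87 ± 0.49) and Mgl2, and Sirpa, the receptor of CD47. The receptor for short-chain fatty acids Ffar2 (-6.96 ± 0.70), the chemokine Ccl9 (-4.96 ± 0.49) and the oxidase subunit Cybb (-4.41 ± 0.46) were lower too. The count of 292 calls became 149 without OE-Vector 1, 417 without OE-MLKL 2 and 161 without OE-MLKL 3.

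C1q macrophages, a population added after the Cd209a DCs had proved few, gave the deepest contrast. Xcr1-Clec9a DCs were higher in 1862 of 11159 genes (16.7%) and lower in 2269 (20.3%), and all 18 cDC1 genes tested were higher, with a median of 4.22 beside -0.02 over all genes. Itgae stood at 349, 324, 295 and 391 CPM against 0.954, 0.745, 0.418 and 0.89 CPM (8.73 ± 0.21, edgeR adjusted p = 2.4e-20) and Flt3 at 166, 154, 105 and 189 CPM against 0.173, 0.895, 0.418 and 0.785 CPM (8.09 ± 0.27, adjusted p = 1.1e-17). Irf8 differed less, by 2.31 ± 0.13 (adjusted p = 1.9e-13). Sept3 (10.05 ± 0.24), Plet1 (9.43 ± 0.24) and Btla (8.60 ± 0.24) were again far higher. The fractalkine receptor Cx3cr1 (-6.37 ± 0.25), the mannose receptor Mrc1 (-6.21 ± 0.23), arginase Arg1 (-6.15 ± 0.22) and the efferocytosis receptor Mertk (-6.04 ± 0.31) were lower. Without OE-MLKL 3 the count of 4131 calls fell to 2735.

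Among the genes that shape DC development, Cbfa2t3 and Kit stood high and Zeb2 and Irf4 low. Cbfa2t3, a co-repressor that keeps Irf8 on, stood at 371, 467, 432 and 606 CPM. Kit, the stem cell factor receptor, was at 93.6, 121, 88.8 and 189 CPM against 0.954, 1.34, 0.558 and 1.57 CPM in C1q macrophages (6.78 ± 0.23, edgeR adjusted p = 1.2e-17). Zeb2, a repressor of the cDC1 fate, was at 39.4, 16.5, 44.4 and 45.6 CPM against 648, 623, 613 and 1077 CPM in C1q macrophages, a difference of -4.33 ± 0.19 on the log2 scale (adjusted p = 1.9e-15). Irf4, the cDC2 factor, had 2 UMIs in all 251 cells. Klf4 was found at 61.6, 154, 226 and 153 CPM, with the lowest value in OE-Vector 1. Of 15 such genes tested against C1q macrophages, 8 were higher and 4 lower, with a median of 1.08, beside 16.7 and 20.3% of all genes. Against Ccr7 DCs 4 of 14 were higher (Irf8, Spi1, Kit and the GM-CSF receptor Csf2ra) and 2 lower (Nfil3 and Zeb2), the latter near the 13.3% of all genes.

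MHC class II transcripts were the most abundant of the presentation machinery and close between the libraries. The invariant chain Cd74 stood at 13429, 13524, 9790.3 and 11325 CPM and H2-Ab1, the beta chain of I-A, at 6284, 6282, 5012 and 4634 CPM. Against Ccr7 DCs, 9 of 10 class II genes were higher with a median of 2.26, and H2-Ab1 stood there at 1049, 273, 1047 and 793 CPM (2.79 ± 0.36, edgeR adjusted p = 1.9e-13). Against C1q macrophages 9 of 10 were higher with a median of 1.29, and against Cd209a DCs none of 10 was higher, with a median of -0.18. Ciita, the class II transactivator, was at 321, 302, 214 and 450.5 CPM. H2-Ob, a chain of H2-O, which restrains peptide loading, was at 148, 43.9, 60.5 and 94.9 CPM with its lowest levels in OE-MLKL 1 and 2. Ctss, the cathepsin that trims the invariant chain, was lower than in C1q macrophages, at 388, 560.1, 343 and 424 against 2646, 3456, 3259 and 3597 CPM (-2.96 ± 0.14, adjusted p = 7.1e-15), and was the class II gene lower than in Cd209a DCs.

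MHC class I genes went both ways. Against C1q macrophages 16.7% of all genes were higher and 20.3% lower. Of 16 class I genes, Tap1, Tap2, Psmb8, Psmb9, Psme1 and Psme2 made up the 6 higher, and H2-K1, H2-D1, B2m, Tapbp, Psmb10 and Calr the 6 lower. The immunoproteasome subunits were thus divided, with Psmb8 and Psmb9 higher and Psmb10 lower. Psmb9, an immunoproteasome subunit, stood at 856, 313, 367 and 431 CPM against 213, 96.3, 125 and 125 CPM (1.75 ± 0.15, edgeR adjusted p = 3.9e-10). Tap1, a chain of the peptide transporter, was at 342, 154, 165 and 367 CPM against 128, 107, 116 and 133 CPM (1.06 ± 0.18, adjusted p = 3.3e-05). B2m, the light chain, was at 1196, 1285, 899.9 and 1254 CPM against 3091, 2495, 2102 and 2282 CPM (-1.14 ± 0.13, adjusted p = 7.1e-08). Against Ccr7 DCs Tap1 was higher and H2-K1, B2m and Psme2 lower among 15 tested, counts near the 11.9 and 13.3% of all genes, and against Cd209a DCs Psmb8, Psmb9 and Psme1 were higher among 14.

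The cross-presentation list was mixed. Wdfy4, Cd36, Havcr2, Rab43 and Ly75 were higher than in C1q macrophages, and Cybb, Cyba, Axl, Itgav, Lrp1 and Syk lower, out of 13 tested. Over all genes of that comparison 16.7% were higher and 20.3% lower. Rab43, a GTPase used in cross-presentation by these cells, stood at 371, 346, 331 and 540.4 CPM against 101, 109.7, 124 and 171 CPM (1.63 ± 0.15, edgeR adjusted p = 1.4e-09). Havcr2 (TIM-3), a checkpoint receptor of intratumoural DCs, was at 116, 137, 72.6 and 178 CPM against 4.82, 0, 13.1 and 3.29 CPM in Ccr7 DCs (4.69 ± 0.55, adjusted p = 9.8e-16). Cybb, the catalytic subunit of the phagocyte oxidase, was at 23.4, 0, 0 and 17.9 CPM against 653, 949, 845 and 835 CPM in C1q macrophages. Apol7c, a pore-forming apolipoprotein L that DCs use in cross-presentation, had no UMI in any of the 251 cells, which allows up to 1.05 CPM, and 6 of the 11 apolipoprotein L genes were at 0.

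Of the chemokines that recruit T cells, Ccl17 had the highest mean level over the 4 libraries, but in OE-MLKL 3 Cxcl9 and Cxcl16 stood above it and in OE-Vector 1 Cxcl16 was close to it. Ccl17, a ligand of CCR4, stood at 239 CPM in OE-Vector 1 and 1955, 1316 and 194 CPM in OE-MLKL 1, 2 and 3. OE-MLKL 1 and 2 were thus high and OE-MLKL 3 was below OE-Vector 1, and the group comparison did not pass (edgeR adjusted p = 0.062). The counts were uneven among cells: in OE-Vector 1, 85 of its 194 UMIs were in 1 cell, and 116 of 356, 100 of 326 and 66 of 315 were in OE-MLKL 1, 2 and 3. Ccl17 was detected in 15 of 53, 19 of 23, 23 of 27 and 46 of 148 cells, so in OE-MLKL 1 and 2 most cells held it. Ccr7 DCs, 2 cells in OE-MLKL 1, held 403, 0, 1492 and 145 CPM, C1q macrophages 3.64, 9.39, 17.3 and 3.03 CPM and barcodes with at most 100 UMIs, which carry mainly free RNA, 2.61, 8.52, 17.4 and 7.24 CPM, with OE-MLKL 2 the highest library in each of these. Ccl22, the other CCR4 ligand, was low at 14.8, 27.5, 12.1 and 23.4 CPM.

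**Figure D3:**
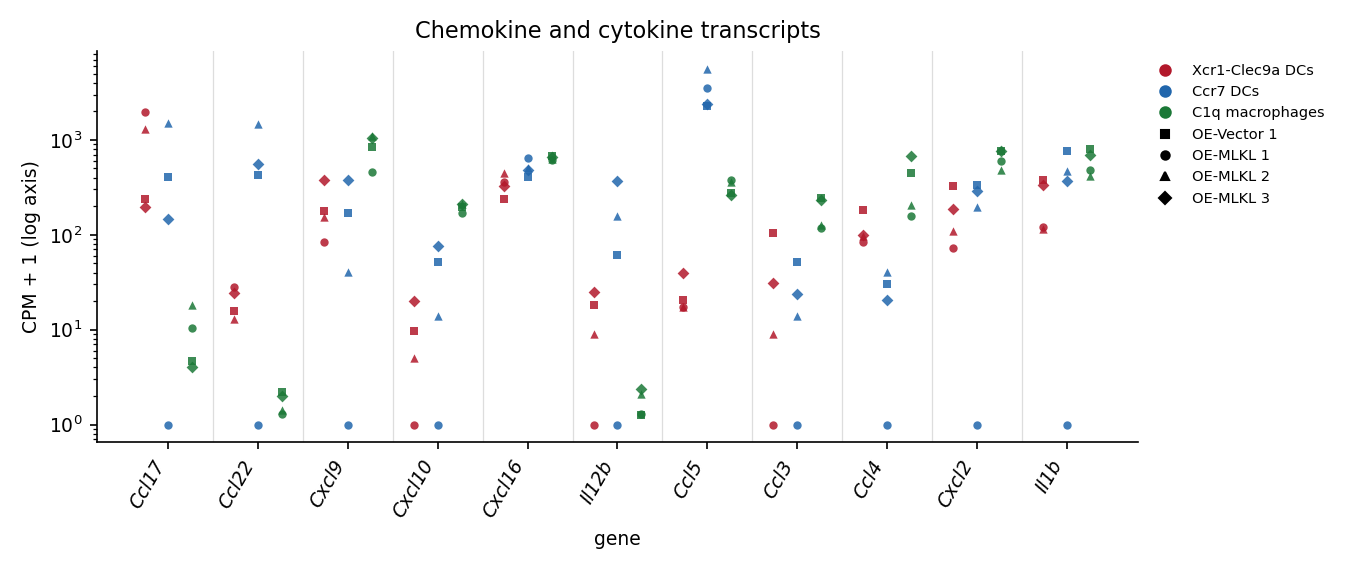
Levels of 11 cytokines and chemokines in Xcr1-Clec9a DCs, Ccr7 DCs and C1q macrophages, as CPM + 1 on a log axis with 1 point per library. Ccl17 in Xcr1-Clec9a DCs spans 194 to 1955 CPM, and Ccl5 is highest in Ccr7 DCs in every library. The Ccr7 DCs of OE-MLKL 1 are 2 cells and lie at 0 for most of these genes.

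Cxcl9 and Cxcl10 draw CXCR3-bearing T cells and NK cells. Cxcl9 was at 179, 82.4, 153 and 374 CPM in Xcr1-Clec9a DCs, but at 842, 460.4, 1108 and 1034 CPM in C1q macrophages and at 234, 61.8, 117 and 240.0 CPM in barcodes with at most 100 UMIs. The DC values were thus below the macrophage values in every library and near those of the barcodes with few UMIs. Cxcl10 was at 8.62, 0, 4.04 and 19.1 CPM. Il12b, the p40 chain of IL-12, was at 17.2, 0, 8.07 and 24 CPM against a mean of 146 ± 160.1 CPM (SD, n = 4) in Ccr7 DCs, and Il12a, the p35 chain, had 1 UMI in all. Cxcl16, a chemokine that also binds phosphatidylserine, was steady at 236, 362, 448 and 325 CPM. Il1b, at 378, 121, 113 and 332 CPM, stood below the 1452, 603, 649 and 1872 CPM of the barcodes with at most 100 UMIs in every library. Of 16 cytokines tested against C1q macrophages, 2 were higher (Ccl17 and Ccl22) and 10 lower, with a median of -1.71. Over all genes 16.7% were higher and 20.3% lower, so the count of higher cytokines is near the background.

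Costimulatory and checkpoint ligands were mostly lower than in the Ccr7 DCs. Cd86, a ligand of CD28, was at 142, 71.4, 68.6 and 163 CPM. Cd274 (PD-L1) was at 30.8, 22, 16.1 and 78.3 CPM against 217, 364, 236 and 273 CPM in Ccr7 DCs (-2.54 ± 0.32, edgeR adjusted p = 2.0e-13). Of 7 tested there, Cd80, Cd274, Pdcd1lg2, Cd200 and Pvr were lower and Havcr2 higher, with a median of -2.21. Cd70 and Tnfsf4 had no UMI in any cell, which allows up to 1.05 CPM, and Ido1 had 1. Of 15 innate sensors, Tlr3, Tlr11 and Cgas were higher than in C1q macrophages and 7 lower, where 16.7% of all genes were higher, so the count of higher sensors is near the background. Of the necroptosis genes, Ripk1, Ripk3, Mlkl, Zbp1, Casp8, Cflar and Tnfrsf1a, 7 of 8 tested, were lower than in C1q macrophages, with a list median of -1.16. Over all genes 20.3% were lower. Ripk3, the kinase that activates MLKL, stood at 7.39, 11, 4.04 and 3.08 CPM against 18.2, 9.39, 15.5 and 11.5 CPM in C1q macrophages (-1.44 ± 0.40, adjusted p = 0.0057), with OE-MLKL 1 alone not below its macrophages. The 8 genes summed to 256, 225, 295 and 283 CPM in the Xcr1-Clec9a DCs. Barcodes with at most 100 UMIs held more in every library, at 431, 304, 316 and 396 CPM.

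Interferon-induced genes were for the most part lower than in C1q macrophages. Of 19 type I interferon genes, 11 were lower and Stat2 higher, with a list median of -0.74 beside -0.02 over all genes. Of 16 interferon-gamma genes, 12 were lower and Socs1, Ciita, Tap1 and Psmb9 higher, with a median of -0.94. Over all genes 20.3% were lower and 16.7% higher, so the few higher genes are near that background. The guanylate-binding protein Gbp2 stood at 107, 82.4, 44.4 and 80.7 CPM against 439, 325, 433 and 387 CPM (-2.32 ± 0.18, edgeR adjusted p = 1.5e-10) and 370.3, 123, 179 and 291 CPM in barcodes with at most 100 UMIs, so the DC values were the lowest of the 3 in every library. Socs1, a feedback inhibitor of interferon signalling, was at 66.5, 49.4, 36.3 and 93.1 CPM against 36.2, 27.3, 33.2 and 30.3 CPM (1.06 ± 0.21, adjusted p = 2.4e-04). Iigp1, an immunity-related GTPase, was at 188, 27.5, 36.3 and 269.9 CPM and Irf1, a transcription factor, at 96.1, 16.5, 48.4 and 124 CPM, both high in OE-Vector 1 and OE-MLKL 3 and low in OE-MLKL 1 and 2. The immediate early genes that dissociation of tissue can induce were also lower than in C1q macrophages, with 10 of 16 stress genes lower, 1 higher (Hsp90aa1) and a median of -0.90. Fos was at 906, 669.9, 899.9 and 1796 CPM against 1284, 2407, 1992 and 2899.6 CPM (-1.05 ± 0.17, adjusted p = 1.3e-05).

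In each library a larger share of Xcr1-Clec9a DCs than of the other myeloid populations held cell cycle transcripts. For this count, cells below 1000 UMIs were left out, which among the Xcr1-Clec9a DCs was 1 cell of OE-MLKL 3. A cell was counted as cycling with at least 2 UMIs of 23 cell cycle genes after thinning to 1000 UMIs, which counts transcripts and does not measure division. That held for 21 of 53, 5 of 23, 14 of 27 and 54 of 147 cells, or 39.6% (exact binomial 95% interval 26.5 to 54.0), 21.7% (7.46 to 43.7), 51.9% (31.9 to 71.3) and 36.7% (28.9 to 45.1). C1q macrophages gave 19.3, 5.19, 15 and 16.3%, lower in 4 of 4 libraries by a mean of 23.5 points, and Ccr7 DCs 12.9, 0, 0 and 6.90%, lower by 32.5 points (exact two-sided sign-flip permutation test, each at the smallest p that 4 libraries allow, which is above 0.05). Cd209a DCs gave 7.14, 0 and 20% in the 3 libraries that hold them, lower by 33.7 points (exact sign-flip permutation test, p = 0.25, the smallest 3 libraries allow). S100a8-S100a9 neutrophils gave 4.31, 2.60, 4.97 and 5.16%, as shares of the deeper cells alone. Only 3273 of 4186, 883 of 2508, 1368 of 3693 and 3529 of 3798 neutrophils were deep enough to be thinned. With 1 UMI of the list as the limit, the difference from Ccr7 DCs was 12.9 points and held in 3 of 4 libraries. Unthinned, the shares in Xcr1-Clec9a DCs were 83.0, 65.2, 88.9 and 83.1%. OE-Vector 1 and the OE-MLKL libraries (36.8 ± 15.1%, SD, n = 3) had p = 0.75 in an exact permutation test, which with 1 OE-Vector library cannot go below 0.25.

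**Figure D4:**
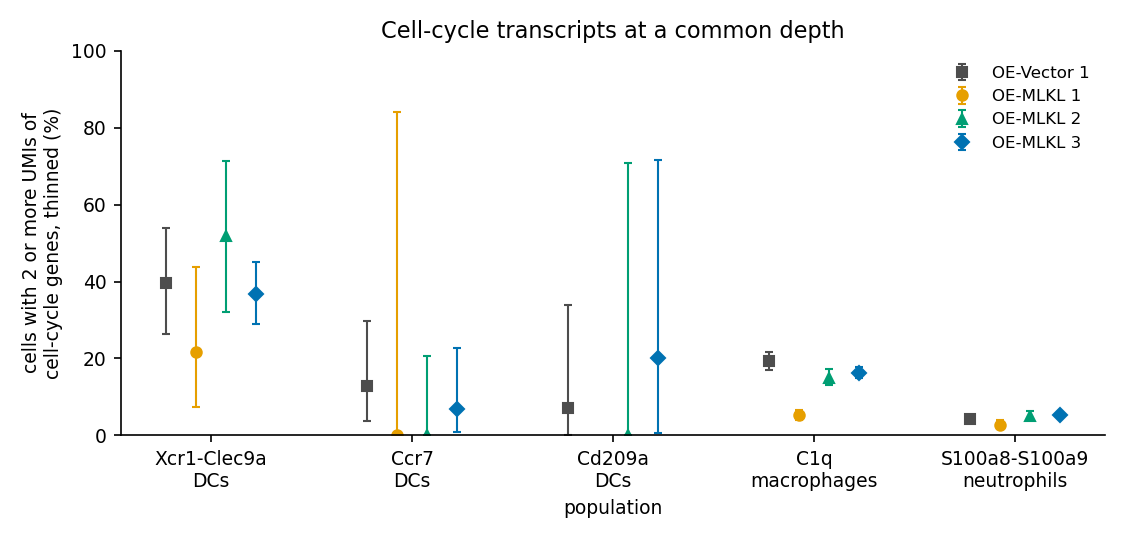
Percent of cells with at least 2 UMIs of 23 cell cycle genes after thinning to 1000 UMIs, by population and library. Cells below 1000 UMIs were left out. Points are libraries and error bars exact binomial 95% intervals. The Xcr1-Clec9a DCs sit at 21.7 to 51.9% and C1q macrophages at 5.19 to 19.3%.

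The sums of counts gave the same order. All 23 cell cycle genes were higher than in C1q macrophages, with a median of 1.23, and 12 of 17 higher than in Ccr7 DCs, with a median of 1.10. Against Cd209a DCs 9 of 13 were higher. The list summed to 3485, 1559, 2825 and 2116 CPM in Xcr1-Clec9a DCs and to 426 to 1474 CPM in C1q macrophages. In Ccr7 DCs it summed to 2756, 182, 353 and 592 CPM, so those of OE-Vector 1 stood above the Xcr1-Clec9a DCs of OE-MLKL 1 and 3, though below those of their own tumour. Barcodes with at most 100 UMIs held 862 to 1669 CPM, and the 9 epithelial and cancer cell markers summed to 451, 187, 767 and 381 CPM in the Xcr1-Clec9a DCs, with Krt8, Krt18, Epcam and Sparc higher than in C1q macrophages, Cdh1 lower and the other 4 not called. Against Cd209a DCs Krt8 and Krt18 were higher of 4 tested, and against Ccr7 DCs all 4 tested, Krt8, Krt18, Sparc and Col18a1, were lower. The part of free RNA or of cancer cells in the result was not tested. Mki67 was at 245, 49.4, 189.7 and 237 CPM, against 94.8, 52.8, 73.6 and 133 CPM in C1q macrophages and 90.7, 44.2, 89.8 and 77.6 CPM in those barcodes, with OE-MLKL 1 below the macrophages of its own tumour. Top2a, the topoisomerase of dividing cells, was at 397, 109.8, 242 and 332 CPM and Pclaf, a partner of the replication clamp, at 445, 126, 222 and 142 CPM. Between the groups all 23 genes had values below 0 (median -0.83, beside 0.05 over all genes) and none passed. The summed list was highest in OE-Vector 1 and lowest in OE-MLKL 1 outside these DCs too. It stood at 1474, 426, 980 and 1253 CPM in C1q macrophages and at 1669, 862, 1473 and 1134 CPM in barcodes with at most 100 UMIs. How far the DC values follow the library as a whole was not tested. Within a library, cycling cells held more UMIs than the rest (medians 16914 against 11273.5, 10100 against 6178.5, 7493 against 6337 and 12755 against 9239). Irf8 did not order them, at 1962 against 1664, 1062 against 1180, 2499 against 1267 and 2145 against 2039.9 CPM in cycling and other cells. The OE-MLKL 2 values lean on 1 cell that held 48779 of its 247796 UMIs. Cd83 was lower in the cycling cells of 4 of 4 libraries, at 52.1 against 64.2, 0 against 7.56, 0 against 22.2 and 126 against 139 CPM, which are small differences in few counts.

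Between the libraries labelled OE-MLKL and OE-Vector 1, few genes passed in the Xcr1-Clec9a DCs. Of 7673 genes tested, 10 were higher in OE-MLKL (0.13%) and 10 lower (0.13%), with 354 at an unadjusted p under 0.05. The fit has 2 residual degrees of freedom, all from OE-MLKL, so a difference between the groups cannot be told apart from one between tumours. OE-Vector 1 lay outside the OE-MLKL range for 42.3% of all tested genes. That is less than in C1q macrophages (51.7%), neutrophils (58.7%) and barcodes with at most 100 UMIs (49.4%). A single library lies outside the range of the others for many genes without a group difference, so the share does not set OE-Vector 1 apart. The number of calls was not stable: it was 7 without OE-MLKL 1, 12 without OE-MLKL 2, 60 without OE-MLKL 3 and 6, all lower, without the cells scored as doublets. DESeq2 called Mgp alone. The edgeR calls without a library or without doublet-scored cells included genes not called in the main fit. Most genes called in the main fit lost their call without OE-MLKL 1, without OE-MLKL 2 or without doublet-scored cells.

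The genes higher in OE-MLKL were Pdcd4, Fkbp5, Tsc22d3, Cirbp, Fgfr1, Tgfbi, Chil3, Mgp, Barx2 and Trp53i11. Pdcd4 (chr19:53892231-53929860, GRCm38), a repressor of translation, stood at 18.5 CPM in OE-Vector 1 and 329, 189.7 and 78.9 CPM in OE-MLKL 1, 2 and 3. It was lowest in OE-Vector 1, with a log2 fold change of 3.30 ± 0.64 (edgeR adjusted p = 5.0e-04, called in 7 of 10 alternatives). The same order was seen outside these DCs, at 21.4, 65.5, 41.8 and 36 CPM in C1q macrophages and 68.9, 129.7, 120.0 and 74.1 CPM in barcodes with at most 100 UMIs. Fkbp5 (chr17:28399094-28517527), a co-chaperone induced by glucocorticoids, stood at 43.1, 434, 262 and 96.1 CPM (2.52 ± 0.59, adjusted p = 0.011), and at 46.3, 294, 324 and 154 CPM in C1q macrophages. Tsc22d3 (chrX:140539528-140600659), the glucocorticoid-induced leucine zipper, was at 34.5, 225, 186 and 166 CPM (2.38 ± 0.59, adjusted p = 0.022), with all 3 OE-MLKL libraries above OE-Vector 1. Cirbp (chr10:80165985-80172786), a cold-inducible RNA-binding protein, was at 20.9, 253, 182 and 58.5 CPM (2.82 ± 0.62, adjusted p = 0.0049), and at 69.4, 284, 226 and 111 CPM in barcodes with at most 100 UMIs. Fgfr1, a growth factor receptor, was at 12.3, 247, 133 and 30.2 CPM and Tgfbi, a matrix protein, at 34.5, 297, 242 and 96.7 CPM, and OE-MLKL 3 was the nearest of the OE-MLKL libraries to OE-Vector 1 for both. Chil3, a chitinase-like protein of myeloid cells, was at 8.62, 87.9, 92.8 and 48.1 CPM, where neutrophils held 65.2, 6654, 7169 and 2379 CPM and OE-Vector 1 was again lowest. Mgp (chr6:136872435-136875823), matrix Gla protein, was at 8.62, 258, 145 and 66.6 CPM, but 43 of its 47 UMIs in OE-MLKL 1 and 30 of 36 in OE-MLKL 2 were in 1 cell each. Barx2 and Trp53i11 passed on 1, 10, 20 and 6 and 2, 21, 9 and 19 UMIs.

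**Figure D5:**
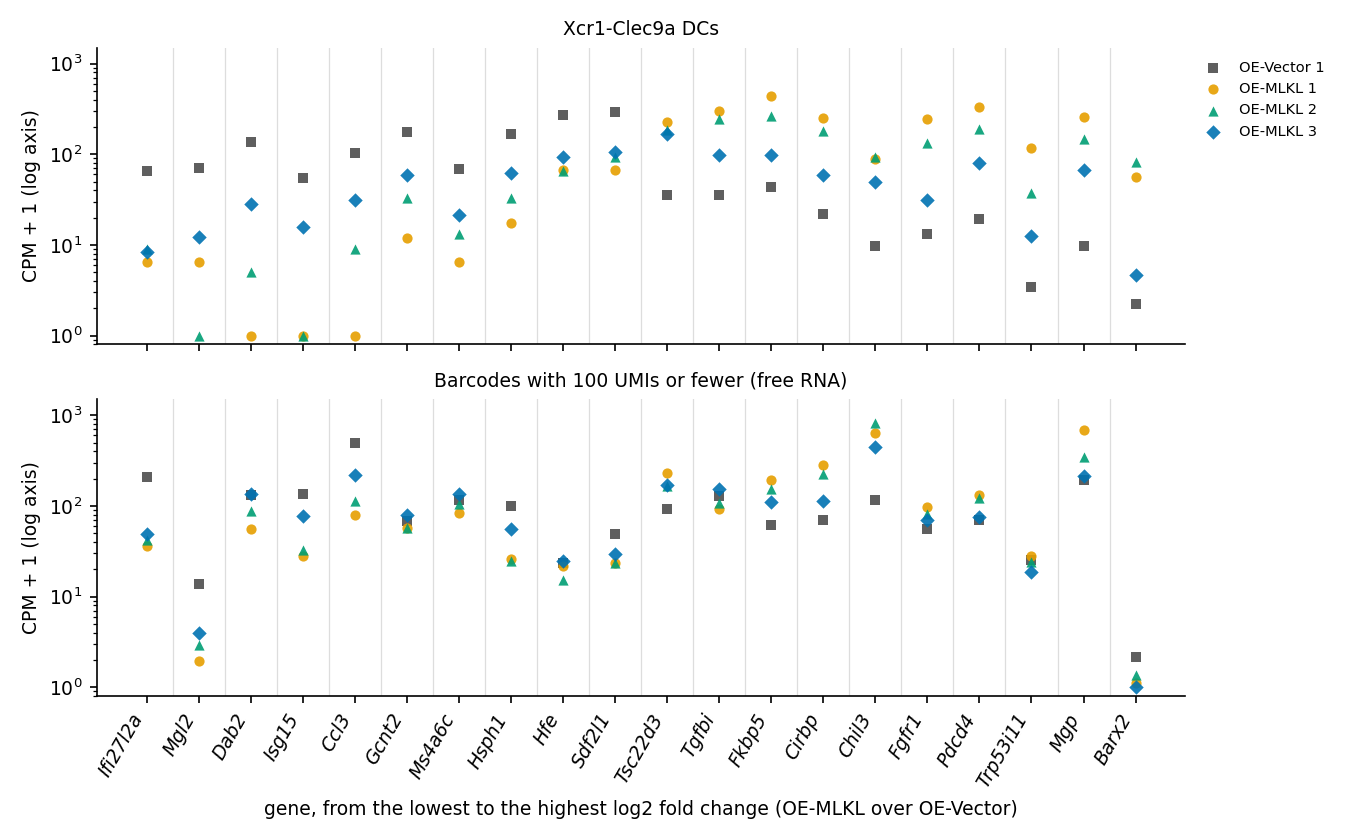
Levels of the 20 genes called between OE-MLKL and OE-Vector 1, as CPM + 1 on a log axis with 1 point per library, in Xcr1-Clec9a DCs (upper panel) and in barcodes with at most 100 UMIs (lower panel). In the DCs OE-Vector 1 lies outside the 3 OE-MLKL libraries for all 20, which were chosen for their difference in these same cells. In the low-UMI barcodes it does so in the same direction for 7 of the 10 higher and 6 of the 10 lower genes. Over all 7673 tested genes it lay below the OE-MLKL range for 24.5% and above it for 17.8% in the DCs. In the low-UMI barcodes these shares were 23.0 and 26.4%.

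The genes lower in OE-MLKL were Dab2, Mgl2, Isg15, Ifi27l2a, Ccl3, Hsph1, Gcnt2, Hfe, Ms4a6c and Sdf2l1. Dab2 (chr15:6299788-6440712), an endocytic adaptor, stood at 134 CPM in OE-Vector 1 and 0, 4.04 and 27.1 CPM in OE-MLKL 1, 2 and 3. OE-Vector 1 was far above the rest (-3.09 ± 0.50, edgeR adjusted p = 4.1e-06), whereas C1q macrophages held 725, 395, 594 and 733 CPM with no such order. Mgl2 (chr11:70130329-70137550), the CD301b lectin of cDC2 and macrophages, stood at 70.2, 5.49, 0 and 11.1 CPM (-3.22 ± 0.62, adjusted p = 5.0e-04). Both were called in 9 of 10 alternatives, all but DESeq2. For Dab2, OE-Vector 1 also stood above the OE-MLKL libraries in S100a8-S100a9 neutrophils. Isg15 (chr4:156199424-156200818), an interferon-induced ubiquitin-like protein, was at 54.2, 0, 0 and 14.8 CPM (-2.64 ± 0.66, adjusted p = 0.026, called in 3 of 10 alternatives) and Ifi27l2a (chr12:103442167-103443680), also interferon-induced, at 65.3, 5.49, 8.07 and 7.39 CPM (-3.27 ± 0.66, adjusted p = 8.3e-04). Neutrophils held Isg15 at 841, 51.1, 95 and 316 CPM and C1q macrophages Ifi27l2a at 307, 83.8, 82.4 and 70 CPM, OE-Vector 1 being highest in each. The type I interferon list had 1 of 10 genes lower and none higher in the DCs, with a median of -0.71. Ccl3, an inflammatory chemokine, was at 102, 0, 8.07 and 30.2 CPM, with 50 of the 83 UMIs of OE-Vector 1 in 1 cell and 2167, 327, 424 and 784 CPM in neutrophils. Hsph1, a heat shock protein, had 39 of 135 UMIs of OE-Vector 1 in 1 cell. Gcnt2, a glycosyltransferase, was at 176, 11, 32.3 and 58.5 CPM and Hfe, the iron regulator, at 271, 65.9, 64.6 and 93.1 CPM. Ms4a6c and Sdf2l1 passed with adjusted p = 0.035 and 0.048, and in 2 and 3 of 10 alternatives. OE-Vector 1 lay outside the OE-MLKL range in the same direction in C1q macrophages for 8 of the 10 higher and 7 of the 10 lower genes, and in neutrophils for 7 and 8. Over all 7673 genes it lay below that range for 32.0% and above it for 19.7% in C1q macrophages, for 44.9 and 13.8% in neutrophils and for 23.0 and 26.4% in barcodes with at most 100 UMIs. Over the 10 macrophage markers outside the rule the DCs summed to 921, 829, 843 and 1113 CPM, with Adgre1 and Fcgr1 at 0 in OE-MLKL 1 and 2. The 8 neutrophil markers summed to 111, 49.4, 80.7 and 134 CPM, with Camp at 0 in all, and none of the 6 macrophage and 5 neutrophil markers tested was called between the groups. What free RNA or neighbouring cells contribute to the DC values was not tested.

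Most lists had no called gene between the groups. Over all tested genes 0.13% were called in each direction, so lists of this size would seldom hold a call. Their lack of calls therefore says little about the lists. The 18 cDC1 genes outside the rule had a median of -0.22 and none was called, and the same was true of the 16 MHC class I (-0.56), 10 class II (-0.09), 12 cross-presentation (0.01), 10 costimulation (-0.09), 15 interferon-gamma (-0.51), 12 maturation (0.39), 15 DC factor (-0.14), 10 innate sensor (0.07), 5 necroptosis (0.18) and 14 stress genes (0.25), beside 0.05 over all genes. Of 13 cytokines Ccl3 was called, and of 7 cDC2 genes Mgl2. Whether the group difference was unequal in Xcr1-Clec9a and Cd209a DCs was tested as an interaction over 2867 genes. That fit had 1 residual degree of freedom and Cd209a sums of 14, 3 and 5 cells, so a lack of calls says little. None passed in edgeR (0%), with 109 at an unadjusted p under 0.05, and none in DESeq2, with 58, and 4 passed without the doublet-scored cells.

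The genes that varied most among the 4 libraries did not follow the groups in all cases. Nr4a2, an immediate early nuclear receptor, was at 299, 38.4, 92.8 and 464 CPM and Cd83 at 57.9, 5.49, 12.1 and 134 CPM, both high in OE-Vector 1 and OE-MLKL 3 and low in OE-MLKL 1 and 2. Gm43914, an unnamed transcript, showed the same pair at 113, 16.5, 52.5 and 239 CPM. Slfn5, an interferon-regulated schlafen, was at 75.1, 98.8, 12.1 and 170.1 CPM, lowest in OE-MLKL 2. Prap1, an intestinal epithelial gene, was at 33.2, 27.5, 12.1 and 132 CPM where barcodes with at most 100 UMIs held 302, 458, 338 and 454 CPM. Of the genes with the highest mean level outside the lists, Tmsb4x (thymosin beta 4) was at 42783, 24270.1, 20545 and 31803 CPM and Cst3 (cystatin C), a DC-rich protease inhibitor, was at 26048, 23798, 17272 and 12949 CPM, the latter lowest in OE-MLKL 3.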

How the data were processed

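Orthotopic tumours were dissociated and sequenced with 10x Genomics 3′ chemistry, given as v2 in the methods, a version that was not checked here. The deposited matrices hold unnormalised UMI counts for 32285 genes in each barcode, made by the authors on mm10. The Cell Ranger version is given as 7.1.0 in the matrix headers, 3.1.0 in the methods and 2.1.1 in the submitters' processing notes, so whether introns were counted is not settled. The matrices held 1.51e+08 to 1.70e+08 UMIs each, 3.17 to 5.14% of them in barcodes with at most 100 UMIs. For OE-Vector 2 and 3 barcode lists were present and their matrices were not analysed here.

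UMIs were summed per library over each population and tested with edgeR 4.0.16 (TMM, filterByExpr, glmQLFit and glmQLFTest, Benjamini-Hochberg adjustment at 0.05) in R 4.3.3. Standard errors are the log2 fold change divided by the square root of F. Tumours, not cells, were the replicates. The p-values rest on a spread between libraries that edgeR estimates with information pooled over genes, not on each gene's own spread alone. Between the groups that spread comes from the OE-MLKL libraries alone. Cd209a DCs, Ccr7 DCs and C1q macrophages were compared with the library as a block, since both populations come from 1 tumour. C1q macrophages had at least 2 UMIs of H2-Aa, 0.5% or more of their UMIs in C1q and no Xcr1, Clec9a, Ccr7 or Cd3e. Shares were compared with exact permutation tests in Python 3.11.15. The script was tested on simulated counts. Alternatives were DESeq2 1.42.0, RLE and library size scaling, other count filters, removal of doublet-scored cells (0.8% per 1000 cells) or shared barcodes, the fit with no block, and each library left out.

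The members and the 24 gene lists were chosen with earlier results of these data known. Named genes were list members with high level or small p, up to 10 called genes in each direction between groups with at least 20 UMIs, the 12 largest called differences in each direction against another population at 50 CPM or more, the 15 highest genes outside the lists, and the 10 with the widest spread over libraries at 100 UMIs or more. Gene positions are GENCODE vM21 (GRCm38).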

Additional observations from a re-analysis of the deposited data

Results flagged for a closer look

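The barcode lists given for OE-Vector 2 and OE-Vector 3, whose matrices were not analysed here, held the barcodes of the Xcr1-Clec9a DCs of the other libraries. Of the 251 barcodes, 100% were in the OE-Vector 2 list and 100% in the OE-Vector 3 list. These lists also held 99.2 and 97.4% of the barcodes of all cells, and 62.7 and 63.7% of all barcodes in the 4 matrices. The lists are long, and a barcode in them says nothing of the RNA behind it.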

How the results depend on the processing

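Of the values that answer a comparison, 72 stayed within 1.5 times (counts of genes) or 1 SD between libraries (shares), 16 moved and 3 reversed. The reversals were all in the share of cells that are Xcr1-Clec9a DCs, where OE-MLKL minus OE-Vector was 0.0157 points and became -0.00851 with at least 3 UMIs of Xcr1 and Clec9a, -0.0127 with cells thinned to 1000 UMIs and -0.224 to 0.137 with an OE-MLKL library left out (negative without OE-MLKL 3). For OE-MLKL against OE-Vector the 20 calls became 1 with DESeq2, 6 without doublet-scored cells and 7 to 60 with a library left out. Against Cd209a DCs the 292 calls became 143 with DESeq2, 190 with no replicate block and 149 to 417 with a library left out. Against Ccr7 DCs the 1045 calls became 1609 with no filter on low counts, 697 with no replicate block and 365 to 1279 with a library left out. Against C1q macrophages, a comparison chosen after seeing the data, the 4131 calls became 2733 with no replicate block and 2735 to 4113 with a library left out. The interaction went from 0 to 4 calls without doublet-scored cells, and could not be fitted with a library left out. The cycling difference from Ccr7 DCs, also chosen after seeing the data, became 12.9 points with 1 UMI as the limit. The calls of an alternative fit were in many cases in part other genes than those of the main fit. The cause of these changes was not tested, and the left-out fits also rest on fewer libraries. Under these alternatives named genes kept their direction in every fit that tested them. The call was kept in 927 and lost in 82, of which 76 were between the groups and 6 against other populations, and 205 list medians stayed while 15 moved. Genes that a filter dropped are in neither count. Against Cd209a DCs, 15 of 24 named genes were tested without doublet-scored cells. No paired analysis was possible because the labelled groups share fewer than 2 replicate numbers with a matrix, only OE-Vector 1 being on that side. The few and shallow Xcr1-Clec9a DCs of OE-MLKL 1 and 2, 23 and 27 cells, limit what low genes can show, and a count of 0 there allows 16.5 and 12.1 CPM.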
